A study of Mus musculus with 18 samples.

Results

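Kcnmb1, Npy1r and Rgs17 are 3 genes of vascular tone control, and their expression was examined in whole aortas of mice with and without abdominal aortic aneurysm (AAA). They were represented by 4 probes of the 46624 on the mouse bead array, 1 for Kcnmb1, 1 for Npy1r and 2 for Rgs17, called Rgs17 probe 1 and Rgs17 probe 2 in order of mean signal. All probes that the study paired with these symbols were included. The study had listed all 4 probes as different between aortas with AAA and aortas of infused mice without AAA, and Kcnmb1 also as different between the latter and saline controls. The genes were thus chosen by their measured differences in those comparisons, which are given below as a description, without a test.

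All mice were male and ApoE-/-, that is, without apolipoprotein E, which leaves them with high plasma cholesterol. They were 13 to 14 weeks old at the start and carried an osmotic minipump for 4 weeks. Controls received saline (n = 6). The other mice received angiotensin II (AngII), the peptide hormone that constricts vessels and raises aldosterone, at 1.44 µg per kg per minute, and were sorted at necropsy into those with AAA (n = 5) and those without (no AAA, n = 7). The 2 AngII groups thus differ in an outcome and not in an assigned treatment. They were fed standard chow. RNA came from the whole aorta of each mouse, from arch to iliac bifurcation, with 1 array per mouse, so the p-values below measure the spread between mice.

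Kcnmb1 encodes the beta1 subunit of the large-conductance calcium-activated potassium channel of smooth muscle. When calcium is released near the membrane this channel opens, potassium leaves the cell, and the membrane potential moves away from the range that opens voltage-gated calcium channels. The beta1 subunit raises the calcium sensitivity of the pore, and mice without it have increased arterial tone. Npy1r encodes the Y1 receptor for neuropeptide Y, a peptide that sympathetic nerves release together with noradrenaline. Through Gi proteins the Y1 receptor constricts vessels and strengthens the response to noradrenaline. Rgs17 encodes a regulator of G-protein signalling, which speeds the hydrolysis of GTP by alpha subunits of the Gi and Gz classes and so ends signals of receptors of the kind that Npy1r belongs to.

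The 3 genes lie on different chromosomes (mouse build GRCm38.p6, RefSeq annotation). Npy1r spans chr8:66697149-66706800, Rgs17 spans chr10:5825663-5922412 on the minus strand, and Kcnmb1 spans chr11:33962955-33973641. Their promoters, taken from RefSeq as 300 bases around an annotated transcript start, are shown because the 3 genes were chosen together for a lower level in AAA than in no AAA, and capitals mark GGGCGG, the core of a GC box, on either strand.
Npy1r, chr8:66697172-66697471, plus strand: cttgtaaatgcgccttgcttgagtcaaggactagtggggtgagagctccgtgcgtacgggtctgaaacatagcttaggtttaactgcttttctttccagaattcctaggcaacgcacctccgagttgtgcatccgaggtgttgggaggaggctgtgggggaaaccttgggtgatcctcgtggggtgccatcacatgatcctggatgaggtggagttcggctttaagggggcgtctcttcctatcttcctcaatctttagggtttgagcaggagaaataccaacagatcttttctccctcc
Rgs17, chr10:5922351-5922650, minus strand: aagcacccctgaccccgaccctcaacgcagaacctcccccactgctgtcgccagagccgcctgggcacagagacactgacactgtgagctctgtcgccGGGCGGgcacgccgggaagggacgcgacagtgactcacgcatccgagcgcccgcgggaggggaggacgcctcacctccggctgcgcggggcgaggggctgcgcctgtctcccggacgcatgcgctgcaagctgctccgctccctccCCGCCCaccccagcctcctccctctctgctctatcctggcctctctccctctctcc
Kcnmb1, chr11:33962763-33963062, plus strand: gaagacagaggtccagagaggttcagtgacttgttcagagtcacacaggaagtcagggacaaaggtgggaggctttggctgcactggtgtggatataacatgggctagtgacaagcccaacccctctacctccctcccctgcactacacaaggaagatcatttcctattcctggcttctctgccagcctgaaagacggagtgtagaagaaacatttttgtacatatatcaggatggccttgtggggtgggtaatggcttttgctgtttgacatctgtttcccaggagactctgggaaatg
The promoters differed in composition. The Rgs17 promoter was 71.0% G and C with 27 CpG pairs and held GGGCGG at 2 positions, starting 152 and 6 bases before that start. The Npy1r promoter was 51.7% G and C with 10 CpG pairs, and that of Kcnmb1 was 49.7% with 1 CpG pair, close to the median of 52.7% over 32851 mouse promoters of this length. GGGCGG occurred in 35.7% of those promoters. TATAAA (in 13.6% of all promoters), the cyclic AMP response element TGACGTCA (1.79%) and the CArG box of smooth muscle genes (1.63%) were searched on both strands and were not found in any of the 3 windows. These letter matches are a description and show nothing about binding.

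Expression is given as log2 of the probe's signal over the median signal of its array, so 1 unit is a doubling. A probe counted as detected where the scanner software's detection score was above 0.95, and the 21434 probes detected on at least 5 of 18 arrays were tested with limma, with Benjamini-Hochberg adjustment over all of them. All 4 probes passed that filter, and their detection scores were at least 0.998 on every array. Behind each value lay 19 to 65 beads, and the error over beads was 3.43% to 10.1% of the signal. Saline arrays had 18647 to 19661 detected probes and medians of 108.1 to 126.8 on the scanner's intensity scale, no AAA arrays 19438 to 20676 and 122.0 to 142.6, and AAA arrays 20057 to 21052 and 127.6 to 135.2. Saline and AAA arrays thus did not overlap in either measure, and the part of this in the comparisons with saline was not tested. Groups and BeadChips (the slides that carry 6 arrays each) nearly coincided. The 6 saline arrays filled one BeadChip and no AAA 1 to 6 another, while the 5 AAA arrays shared the last with no AAA 7, so for every comparison with saline the group and the BeadChip cannot be told apart. The median difference over all tested probes was 0.13 for AAA minus saline, 0.15 for no AAA minus saline and -0.01 for AAA minus no AAA, and differences from saline are to be read relative to those shifts. Calls over all probes leaned the same way, with 6540 probes called up and 1977 down for AAA against saline, and 7498 up and 2155 down for no AAA against saline. After quantile normalization these splits were 3574 to 3196 and 4350 to 2913. Arrays were taken as each sample's description names them. In a separately deposited value table, 12 of the 18 columns hold the values of another array, with AAA and no AAA columns exchanged. Under that assignment the AAA minus no AAA differences of the 4 probes would turn positive, from 0.67 to 0.86, those of both Rgs17 probes in no AAA minus saline would turn negative, and those of Npy1r and both Rgs17 probes in AAA minus saline positive. Kcnmb1 against saline would stay positive in both AngII groups, and so would Npy1r in no AAA minus saline, at 0.02. The values below rest on the descriptions.

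Kcnmb1 was highest in the infused mice without AAA. Its level in the saline aortas ran from 3.54 to 4.18 (median 3.85), and in the no AAA aortas from 4.77 to 5.29 (median 5.01). The 5 AAA aortas had 3.34, 4.50, 3.65, 4.01 and 4.64 (AAA 1 to 5). Every no AAA aorta lay above every saline and every AAA aorta, whereas the AAA and saline aortas were intermingled. The means were 3.85 ± 0.21 (SD, n = 6) in saline, 5.03 ± 0.19 (n = 7) in no AAA and 4.03 ± 0.55 (n = 5) in AAA. As a description, no AAA exceeded saline by 1.18 (SE 0.17), a 2.26-fold higher signal, and AAA was 1.00 (SE 0.18) below no AAA, a 2.00-fold lower signal. Without overlap between the groups, 14.7% of all tested probes had no AAA above saline and 2.39% had AAA below no AAA, and nothing is read from these shares since both comparisons chose the gene. That last value sat at the 2-fold change the study had required, and Kcnmb1 was the member nearest to it. The comparison not used in the choice was AAA against saline, where the difference was 0.18 (SE 0.19; 95% interval -0.21 to 0.56; limma adjusted p = 0.477), which did not pass. Its sign was negative after quantile normalization (-0.06).

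The spread of Kcnmb1 differed between the groups. In saline and no AAA aortas its SD ranked above 69.9% and 52.1% of all tested probes, and in AAA aortas above 94.2%. The AAA values ran from 10.1 times the array median in AAA 1 to 25.0 times in AAA 5, the latter just under the lowest no AAA aorta (27.3 times).

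Npy1r followed the same order of no AAA over saline, but its AAA aortas lay lowest. In saline it ran from 3.93 to 4.76 (median 4.18) and in no AAA from 4.48 to 5.66 (median 5.14). The AAA aortas had 3.20, 3.85, 3.71, 3.91 and 4.26. A single saline aorta, saline 5 at 4.76, reached into the no AAA range, where it exceeded no AAA 3 (4.56) and no AAA 4 (4.48), and all AAA aortas lay below all no AAA aortas. Group means were 4.23 ± 0.30 (SD, n = 6) in saline, 5.07 ± 0.43 (n = 7) in no AAA and 3.79 ± 0.38 (n = 5) in AAA. For this gene no AAA minus saline was not used in the choice, and Npy1r rose there by 0.84 (SE 0.19; 1.79-fold; limma adjusted p = 0.00177), with the no AAA aorta higher in 40 of 42 pairs of mice. At that threshold 35.0% of all tested probes were called higher, so the call itself was common. In AAA against saline the difference was -0.44 (SE 0.21; 95% interval -0.88 to -0.01 before adjustment; adjusted p = 0.0976), and it did not pass. Here 1 array and the scaling decided the call: without AAA 5 the difference was -0.56 (adjusted p = 0.0468), and after quantile normalization it was -0.68 (adjusted p = 0.0192). The description of AAA minus no AAA was -1.29 (SE 0.20), a 2.44-fold lower signal. Of all tested probes 2.39% had AAA below no AAA without overlap. Nothing is read from the lack of overlap of Npy1r there, since that comparison chose the gene.

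Rgs17 probe 1 fell in AAA aortas to below the level of saline controls. Its saline values were narrow, 2.44 to 2.75 (median 2.51), and its no AAA values wide, 2.07 to 3.66 (median 3.38). AAA aortas had 1.37, 1.81, 1.37, 1.86 and 2.31. All 5 lay under all 6 saline aortas, while no AAA 3 (2.07) fell within the AAA range. The means were 2.55 ± 0.13 (SD, n = 6) in saline, 3.03 ± 0.59 (n = 7) in no AAA and 1.74 ± 0.39 (n = 5) in AAA. AAA minus saline was -0.81 (SE 0.24; 1.75-fold lower; limma adjusted p = 0.0107). Of all tested probes 9.22% were called lower in that comparison and 5.24% were lower without overlap.

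Rgs17 probe 2 gave nearly the same values from other beads. It ran from 2.30 to 2.89 (median 2.51) in saline and from 1.96 to 3.43 (median 2.98) in no AAA. AAA aortas had 1.16, 1.81, 1.41, 1.68 and 2.46, and AAA 5 alone reached into the saline range. AAA minus saline was -0.83 (SE 0.24; 1.78-fold lower; limma adjusted p = 0.00956). With the methods' t-test run on log2 values, an alternative chosen after seeing the data, the adjusted p of this probe was 0.0509.

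Against saline, the higher Rgs17 of the no AAA aortas did not pass the test. The difference was 0.48 (SE 0.22; 95% interval 0.02 to 0.93 before adjustment; limma adjusted p = 0.0788) for probe 1 and 0.26 (SE 0.22; interval -0.20 to 0.72; adjusted p = 0.354) for probe 2. No AAA 3 and no AAA 4 were low and the other 5 ranged from 2.85 to 3.66 for probe 1. Without no AAA 3 the probe 1 difference was 0.64 (adjusted p = 0.00981), and without no AAA 4 it was 0.57 (adjusted p = 0.0417). The description of AAA minus no AAA was -1.29 (SE 0.23) for probe 1 and -1.09 (SE 0.23) for probe 2, that is 2.44-fold and 2.13-fold lower. Both probes report 1 gene and are not independent evidence. Within an array probe 1 exceeded probe 2 by 0.01 ± 0.11 (SD) in saline, 0.24 ± 0.13 in no AAA and 0.04 ± 0.16 in AAA.

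**Figure D1:**
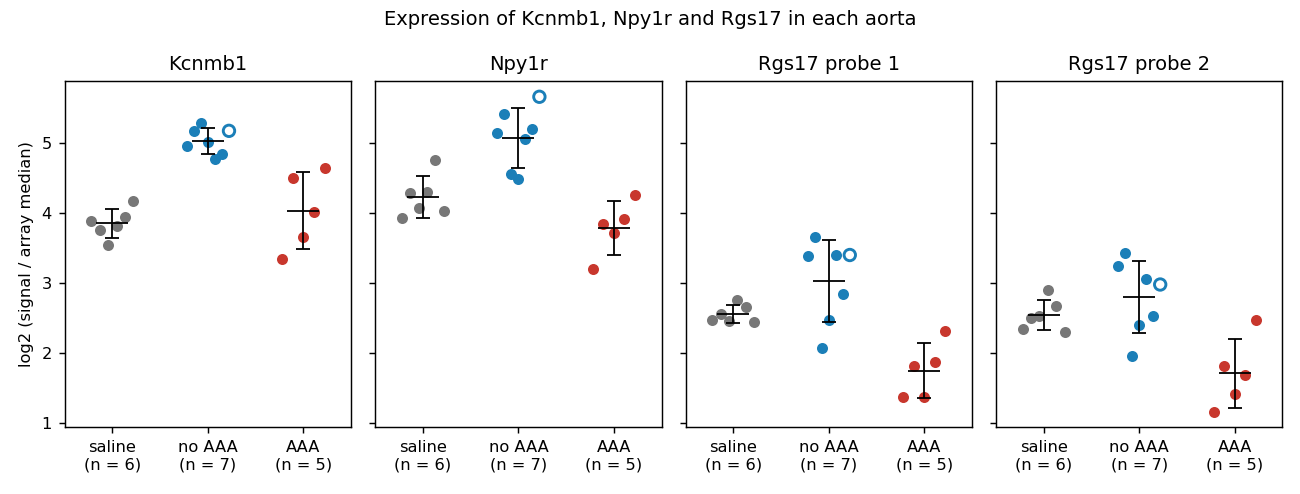
Each point is 1 aorta. The vertical axis is log2 of the probe's signal over the array median, and the bars give the mean ± SD of saline (n = 6), no AAA (n = 7) and AAA (n = 5) aortas. The open circle is no AAA 7, the array on the BeadChip of the AAA arrays. Kcnmb1 and Npy1r in AAA lie below all no AAA aortas, as 2.39% of all tested probes did, and that comparison chose these genes. Rgs17 probe 1 in AAA lies below all saline aortas, as 5.24% of all tested probes did.

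All 3 genes had their highest mean in no AAA aortas. AAA aortas passed the test against saline, as lower, for both Rgs17 probes and not for Npy1r or Kcnmb1, and whether the genes differed in this was not tested. Since AAA minus saline and no AAA minus saline share the saline arrays, and both share arrays with the comparison that chose the genes, the sets of values are not independent of each other.

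A single array bears on the BeadChip. No AAA 7 was hybridised beside the 5 AAA arrays, and it was above the highest AAA array for all 4 probes. Kcnmb1 was 5.17 in no AAA 7 against an AAA maximum of 4.64. Npy1r was 5.66 against 4.26, and no AAA 7 was the highest of the 7 no AAA aortas. For Rgs17 the values were 3.40 against 2.31 (probe 1) and 2.98 against 2.46 (probe 2). The AAA mean minus no AAA 7 was -1.15, -1.88, -1.65 and -1.27 for Kcnmb1, Npy1r, Rgs17 probe 1 and Rgs17 probe 2. This is a description that rests on 1 mouse without AAA, and that array was also among those on which the genes were chosen.

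Covariation between the genes inside the groups was not used to choose them. Each value was taken as its deviation from its group mean over the 18 aortas, and 6 pairs of probes were compared with a permutation test that shuffled arrays within groups (100000 permutations, two-sided, Benjamini-Hochberg over the 6 pairs). Npy1r and Rgs17 probe 1 deviated together (Pearson r = 0.79, permutation p = 0.00044, adjusted 0.00132; Spearman rho = 0.74, permutation p = 0.0021, adjusted 0.00562). Without no AAA 4 and AAA 1, the arrays farthest from the median, r was 0.74. For Npy1r and Rgs17 probe 2 the values were r = 0.76 (permutation p = 0.00137, adjusted 0.00274) and rho = 0.72 (permutation p = 0.00281, adjusted 0.00562), and r = 0.71 without the same arrays. An aorta high in the receptor for its group thus tended to be high in the G-protein regulator. The pairing was visible at both ends: no AAA 3 and no AAA 4 were the lowest of their group in both genes, and AAA 5 was the highest of its group in both. Within saline r was 0.69 for probe 1, within no AAA 0.83 and within AAA 0.88. With 6 and 7 arrays, saline and no AAA did not pass alone (exact permutation test, adjusted p = 0.379 and 0.0738). Within the BeadChips of saline and of no AAA 1 to 6 no group was mixed with another, so these within-group values are also nearly within-BeadChip values.

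The 2 Rgs17 probes correlated at r = 0.95 (permutation p = 1e-05, the smallest the permutations can give, adjusted 6e-05; rho = 0.95, permutation p = 2e-05, adjusted 0.00012) and at 0.94 without no AAA 3 and no AAA 4. Both probes gave the low values of those 2 aortas.

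Kcnmb1 did not pass with any other probe. Its r was 0.40 with Npy1r (permutation p = 0.123, adjusted 0.185; rho = 0.32, permutation p = 0.215, adjusted 0.302), 0.27 with Rgs17 probe 1 (permutation p = 0.278, adjusted 0.278; rho = 0.29, permutation p = 0.274, adjusted 0.302) and 0.36 with probe 2 (permutation p = 0.216, adjusted 0.259; rho = 0.29, permutation p = 0.302, adjusted 0.302). What relation there was rested on the AAA aortas. Without AAA 1 and AAA 5 the 3 values of r were 0.05, -0.01 and -0.05. Within the 5 AAA aortas they were 0.89, 0.89 and 0.92, too few arrays for a correlation to be tested here, and within no AAA they were -0.02, -0.28 and -0.24. No AAA 3 carried the highest Kcnmb1 and the lowest Rgs17 of its group, and without it the 3 pairs reached r of 0.53, 0.54 and 0.58 (permutation test, adjusted p = 0.0445 for each).

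**Figure D2:**
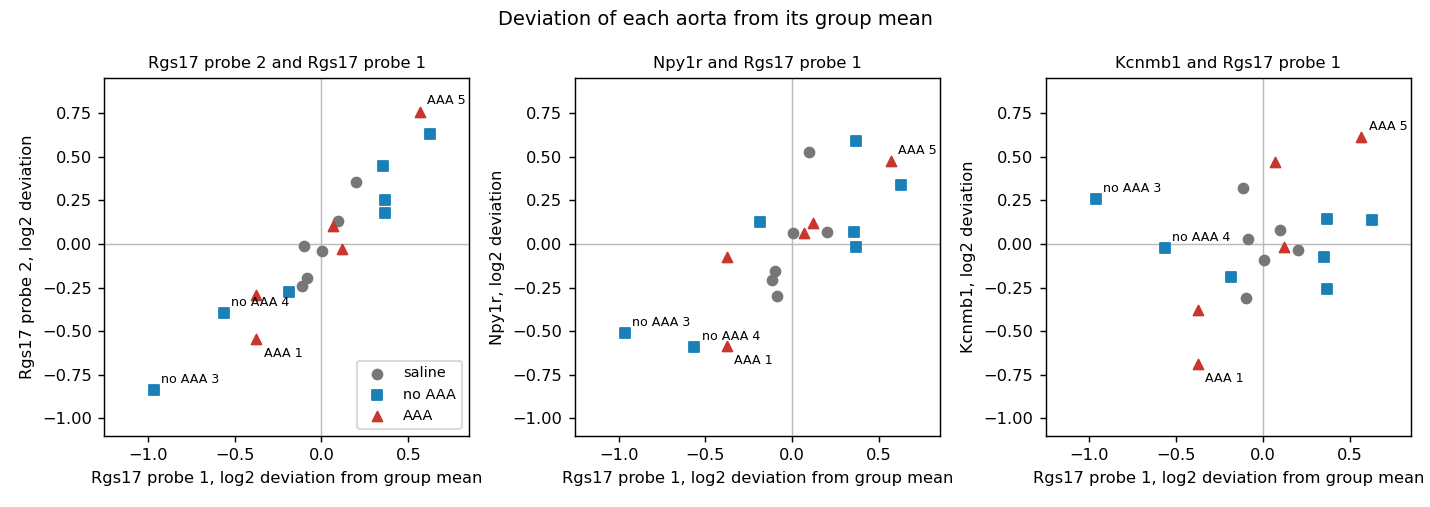
Each point is 1 of 18 aortas, as the log2 deviation from its group mean. Rgs17 probe 1 is on the horizontal axis, and Rgs17 probe 2, Npy1r and Kcnmb1 are on the vertical axes (r = 0.95, 0.79 and 0.27). No AAA 3 stands low in Rgs17 and Npy1r and high in Kcnmb1, while AAA 1 is low and AAA 5 is high in all panels.

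Among 1339 other named genes, those closest to Kcnmb1 in their deviations within groups were Itih2, Sema3c, Acta2, Wif1 and Fgfr2, with r from 0.84 to 0.88 over 18 arrays. Acta2 encodes the alpha-actin of smooth muscle, Sema3c a secreted semaphorin, Wif1 a secreted inhibitor of Wnt ligands, Fgfr2 a fibroblast growth factor receptor and Itih2 a heavy chain of the inter-alpha-trypsin inhibitors. Those closest to Npy1r included Per2 (0.85), Amigo2 (0.85), Rgs17 (0.79) and Fam107a (0.78). For Rgs17 they included Fam107a (0.86), Sphkap (0.80), Amigo2 (0.79) and Npy1r (0.79). Npy1r and Rgs17 were thus in each other's list and also shared Amigo2 and Fam107a, and the list of Kcnmb1 had no gene in common with either. These correlations are a description. All named genes had been listed by the study in at least 1 comparison, and they share arrays and scaling.

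Likeness within groups did not always go with likeness between groups. Per2, a repressor in the circadian clock, was highest in saline (mean 4.92), lower in no AAA (4.28) and lowest in AAA (3.88), with differences from saline of -0.64 (limma adjusted p = 0.00542) and -1.04 (adjusted p = 0.000232). Npy1r was higher in no AAA than in saline. Fam107a, an actin-binding protein, had means of 3.89, 3.47 and 1.89 in the same order and fell by 1.99 in AAA against saline (adjusted p = 0.000309). Per2 and Fam107a carried names only because the study had listed them as different. Their differences and adjusted p are therefore a description.

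Acta2 ran from 3.34 to 4.05 in saline, from 4.85 to 5.39 in no AAA and from 2.74 to 4.62 in AAA, and it was lowest in AAA 1 and highest of its group in AAA 5, as Kcnmb1 was. Within an array, the difference of Kcnmb1 from Acta2 shifted relative to saline by -0.16 in no AAA and -0.04 in AAA, against SDs of 0.19 to 0.28 within the groups. Relative to Acta2, Rgs17 probe 1 differed from saline by -0.86 in no AAA and by -1.03 in AAA, and Npy1r by -0.50 and -0.66. The SDs of these differences from Acta2 within the groups were 0.32 to 0.72 for Rgs17 probe 1 and 0.43 to 0.57 for Npy1r, and no difference between the genes was tested. The study had also listed Acta2 for AAA against no AAA and for no AAA against saline, so its direction was fixed by that choice.

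Other smooth muscle markers were also highest in no AAA aortas. Of 14 markers listed, 5 were named and tested (Acta2, Cald1, Synpo2, Ppp1r14a and Pdlim3). Their summed signal over the array median was 60.6 to 87.7 in saline, 140.2 to 183.5 in no AAA and 45.4 to 99.4 in AAA. All 5 were higher in no AAA against saline (limma adjusted p under 0.05), where 35.0% of all tested probes were. The study had listed 4 of the 5, all but Ppp1r14a, for that comparison, so that count was largely fixed by how they were named. It had listed all 5 for AAA against no AAA, so their lower level in AAA than in no AAA was fixed too. In AAA against saline 0 of 5 passed, with differences from -0.39 (Ppp1r14a) to 0.22 (Acta2), beside 0.18 for Kcnmb1. Of 12 macrophage markers, 8 were named and tested, with sums of 181.9 to 347.1 in saline, 255.1 to 506.0 in no AAA and 468.5 to 1260.0 in AAA, and all 8 were higher in AAA against saline. The study had listed all 8 for that comparison, so the count is a description and nothing is read from it beside the 30.5% of all tested probes called higher. The fat markers (6 of 9: Adipoq, Plin1, Ucp1, Cidea, Lep and Pparg) summed to 873.5 to 1191.0 in saline, 128.2 to 632.6 in no AAA and 223.7 to 561.2 in AAA. The endothelial markers Robo4 and Adgrl4 (2 of 9) summed to 28.1 to 40.6, 9.14 to 17.4 and 18.5 to 53.4. For the B cell marker Cd79b (1 of 5) the ranges were 1.88 to 21.2, 1.57 to 2.57 and 2.63 to 7.58. The study had listed each fat marker for at least 1 comparison with saline. It had listed Robo4 and Adgrl4 for no AAA against saline and for AAA against no AAA, and Cd79b for the latter. Those directions were fixed by the listing, and these sums are a description. Myh11, Tagln and Cnn1 were not analysed here, and neither was any of the 7 adrenal cortex markers. In whole aortas fewer cells of a type and less RNA per cell cannot be told apart, and the part of these cell types in the values of Kcnmb1, Npy1r and Rgs17 was not tested.

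**Figure D3:**
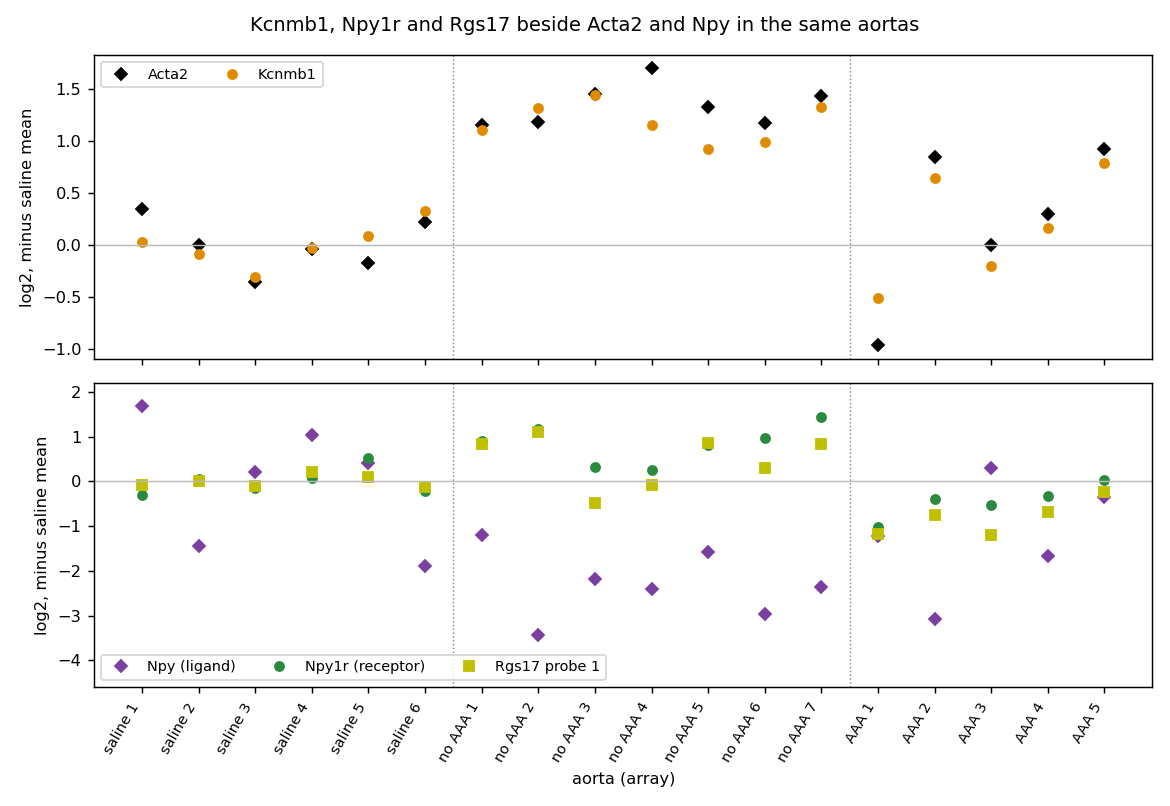
Each column is 1 aorta, and the vertical axis is log2 expression minus the saline mean of that gene. In the upper panel Acta2 and Kcnmb1 lie close together in nearly all 18 aortas. In the lower panel Npy is below its saline mean in all 7 no AAA aortas, where Npy1r is above its own in 7 and Rgs17 probe 1 in 5.

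The ligand of Npy1r, neuropeptide Y (Npy), changed in the opposite direction in no AAA against saline. Npy in saline ran from 2.52 to 6.10 (median 4.72) and in no AAA from 0.99 to 3.23 (median 2.05), and AAA aortas had 3.20, 1.34, 4.71, 2.74 and 4.07. It fell by 2.30 in no AAA against saline (SE 0.57; limma adjusted p = 0.00313), the comparison in which Npy1r rose, and that is also the comparison for which the study listed Npy. In AAA against saline its difference was -1.20 (SE 0.62; adjusted p = 0.13). Npy1r was -0.44 there, the same sign, and neither gene passed. The spread of Npy was wide, with an SD of 1.40 in saline.

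Receptor and ligand did not vary together from mouse to mouse. Within groups Npy had r = -0.04 with Npy1r and 0.01 with Rgs17 probe 1. It instead went with Th, Dbh and Ddc, enzymes of catecholamine synthesis in sympathetic neurons and chromaffin cells, at r = 0.91, 0.89 and 0.87. These were the 3 of 12 markers of those cells that were named and tested, and their summed signal was 3.46 to 29.6 in saline, 2.51 to 6.72 in no AAA and 2.77 to 11.7 in AAA. Th was detected in 4 of 6 saline, 1 of 7 no AAA and 3 of 5 AAA aortas. All 3 enzymes were lower in no AAA against saline, by differences of -1.12, -1.35 and -1.36, where 10.1% of all tested probes were called lower, and the study had listed all 3 for that comparison, which fixed their direction. The part of sympathetic neurons and chromaffin cells in the Npy values was not tested.

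The wider setting was taken from 6 lists of genes of vascular tone, with 154 genes, of which 33 had a probe that the study named and that was tested. Because naming came from lists of probes the study found different, the counts are not independent evidence of change. The same holds for the test of a single gene in a comparison for which the study had listed it. There the direction was fixed by the listing, and the adjusted p is a description. In AAA against saline 15 of the 33 were higher and 10 lower (limma adjusted p under 0.05), beside 30.5% and 9.22% of all tested probes. In no AAA against saline 15 were higher and 9 lower, beside 35.0% and 10.1%. In AAA against no AAA 13 were higher and 11 lower, beside 10.8% and 8.46%. Kcnmb1, Npy1r and Rgs17 are among those 11, and that comparison had chosen them. The same shares of all tested probes stand beside the counts of each list below.

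Of 24 potassium channel genes 6 were named and tested, of which 2 were higher and 2 lower in AAA than in saline. In no AAA 3 were higher and 1 lower, with Kcnmb1, which that comparison had also chosen, among the higher. Kcnab1, a beta subunit of voltage-gated channels, was highest in no AAA, as Kcnmb1 was. It rose by 0.77 in no AAA against saline (limma adjusted p = 0.00514) and was -0.26 from saline in AAA (adjusted p = 0.363). It ran from 5.35 to 6.05 in no AAA with 3.74 to 5.13 in AAA. Kcnip4, which binds Kv4 channels, had the order of Rgs17, with 0.53 in no AAA (adjusted p = 0.0479) and -0.79 in AAA (adjusted p = 0.0112). Kcnk3, a leak channel of the TASK type, fell in both AngII groups, with differences of -2.37 in no AAA (adjusted p = 1.12e-06) and -2.08 in AAA (adjusted p = 6.77e-06). Kcnab2 and Kcnk13 rose in AAA against saline (1.25 and 1.50, adjusted p = 1.99e-05 and 8.89e-05), with 0.06 and 0.23 in no AAA (adjusted p = 0.789 and 0.424). The potassium channels therefore did not share 1 direction, with a median difference of -0.04 in AAA and 0.38 in no AAA. Of these genes, the study had listed Kcnk3, Kcnab2 and Kcnk13 for AAA against saline. It had listed Kcnk3 and Kcnmb1 for no AAA against saline, and those directions were fixed by the listing. All of these genes but Kcnk3 had been listed for AAA against no AAA. The lower level of Kcnmb1, Kcnab1 and Kcnip4 in AAA than in no AAA was thus fixed too, as was the higher level of Kcnab2 and Kcnk13.

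Of 22 genes of RGS proteins and their partners 7 were named and tested, and Rgs4 had the order of Npy1r. Rgs4 acts on Gi and Gq and is found in arterial smooth muscle. It ran from 4.56 to 5.06 in saline, from 5.24 to 5.71 in no AAA and from 3.73 to 5.38 in AAA, and it rose by 0.71 in no AAA against saline (limma adjusted p = 0.00417) with -0.42 in AAA (adjusted p = 0.102). Rgs7 fell in both AngII groups, with differences of -0.62 in no AAA (adjusted p = 0.0174) and -1.33 in AAA (adjusted p = 0.000108), and so did Rgs9bp, an anchor of Rgs proteins, with -1.02 and -0.66. In AAA against saline Rgs1 rose by 2.17 (adjusted p = 1.08e-05), Rgs10 by 1.30 (adjusted p = 0.000303) and Rgs16 by 1.17 (adjusted p = 0.00221). In no AAA against saline Rgs1 also rose, by 1.18 (adjusted p = 0.00122), with 0.53 for Rgs10 (adjusted p = 0.0557) and -0.07 for Rgs16 (adjusted p = 0.846). Of the 7, the tests against saline thus called 3 higher and 3 lower in AAA, with Rgs17 among the lower, and 2 higher and 2 lower in no AAA, with median differences of -0.42 and 0.48. Rgs1, Rgs7, Rgs10 and Rgs16 had been listed by the study for AAA against saline. Rgs1 and Rgs9bp had been listed for no AAA against saline, and those directions were fixed by the listing. Rgs4, Rgs16 and Rgs17 had been listed for AAA against no AAA. The lower level of Rgs4 and Rgs17 in AAA than in no AAA was thus fixed too, as was the higher level of Rgs16.

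Of 43 receptors for other vasoactive ligands, 7 were named and tested. In no AAA against saline 3 were higher and 3 lower, and in AAA against saline 5 were higher and 2 lower. The adrenoceptor genes Adra1a and Adrb3 were lower in both AngII groups, Adra1a by differences of -1.04 in no AAA and -1.24 in AAA and Adrb3 by -1.35 and -0.96 (limma adjusted p at most 0.000702). The purine receptor genes P2ry6 and Adora2b, the serotonin receptor gene Htr2b, the sphingosine 1-phosphate receptor gene S1pr2 and the apelin receptor gene Aplnr rose in AAA against saline by 0.87 to 1.49 (adjusted p at most 0.000438). Of these, P2ry6 (0.75, adjusted p = 0.000292), S1pr2 (0.56, adjusted p = 0.0152) and Adora2b (0.44, adjusted p = 0.0123) also rose in no AAA against saline, as Npy1r did. Aplnr was lower there (-0.39, adjusted p = 0.0269), and Htr2b did not pass (0.28, adjusted p = 0.261). None of the 7 was lower in AAA than in no AAA past the threshold, where 8.46% of all tested probes were, so nothing is read from that. In the same comparison 4 were higher, beside 10.8% of all tested probes. Their median difference from saline was 1.00 in AAA and 0.28 in no AAA. All but Adrb3 and Aplnr had been listed by the study for AAA against saline. Adra1a and Adrb3 had been listed for no AAA against saline, and those directions were fixed by the listing. Htr2b and Aplnr had been listed for AAA against no AAA, so their higher level in AAA than in no AAA was fixed too.

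In the nitric oxide and cyclic nucleotide list (6 of 23), Gucy1b1, the beta1 subunit of the nitric oxide receptor, was highest in no AAA, as Kcnmb1 was. It ran from 5.00 to 5.64 in saline, from 6.01 to 6.76 in no AAA and from 4.71 to 5.76 in AAA, with a rise of 0.96 in no AAA (limma adjusted p = 0.000196) and -0.18 in AAA (adjusted p = 0.458). The phosphodiesterase genes split. Pde3b and Pde4d fell in both AngII groups, with differences of -0.98 to -1.45, Pde4b rose in both (1.01 and 0.84), and Pde1b rose in AAA (1.29, adjusted p = 1.69e-05) with 0.16 in no AAA (adjusted p = 0.446). Adcy2, an adenylyl cyclase, rose in both (0.59 and 1.32). In all, 3 of the 6 were higher and 2 lower in each AngII group, with medians of 0.33 in AAA and 0.37 in no AAA. Pde1b, Pde3b and Adcy2 had been listed by the study for AAA against saline. Pde3b, Pde4b and Pde4d had been listed for no AAA against saline, and those directions were fixed by the listing. Gucy1b1 and Pde1b had been listed for AAA against no AAA. The lower level of Gucy1b1 in AAA than in no AAA was thus fixed too, as was the higher level of Pde1b.

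In the calcium and myosin light chain list (5 of 33), 3 genes each had the order of 1 of the 3 genes described here. For all of these, the lower level in AAA than in no AAA was fixed by the study's listing. Cald1, caldesmon, rose by 1.25 in no AAA (limma adjusted p = 3.78e-06) with 0.21 in AAA (adjusted p = 0.3), as Kcnmb1 did. Ppp1r14a, an inhibitor of myosin phosphatase, rose by 0.65 in no AAA (adjusted p = 0.0167) with -0.39 in AAA (adjusted p = 0.188), as Npy1r did. Ppp1r12a, the targeting subunit of that phosphatase, fell by 0.63 in AAA (adjusted p = 0.0187) with 0.37 in no AAA (adjusted p = 0.113), as Rgs17 did. The protein kinase C genes Prkcb and Prkcd rose in AAA by 1.40 and 1.01 (adjusted p = 1.28e-05 and 2.82e-05). In no AAA Prkcd also rose, by 0.75 (adjusted p = 0.000228), with 0.23 for Prkcb (adjusted p = 0.272). The list's medians were 0.21 in AAA and 0.65 in no AAA. Prkcb and Prkcd had been listed by the study for AAA against saline. Cald1 had been listed for no AAA against saline, and those directions were fixed by the listing.

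**Figure D4:**
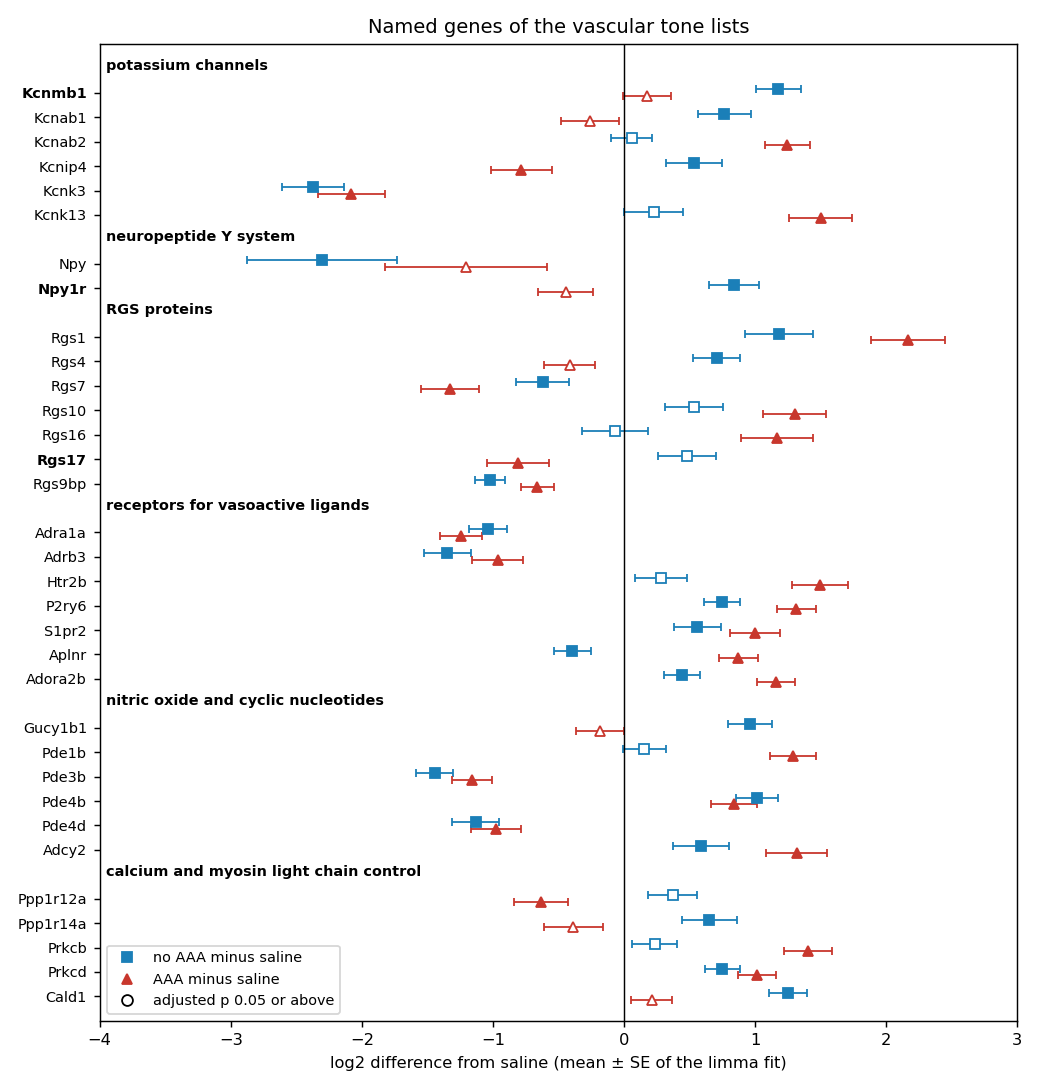
Rows are the 33 named genes of the vascular tone lists, and the horizontal axis is the log2 difference from saline with its SE in the limma fit, squares for no AAA and triangles for AAA. Open symbols have an adjusted p of 0.05 or above. The filled symbol of Kcnmb1 in no AAA is a description, since that comparison had also chosen it. So is the symbol of any other gene in a comparison for which the study had listed it. The probe drawn for Rgs17 is probe 1, and both symbols of a row share the same 6 saline arrays.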

How the data were processed

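RNA of 18 aortas was hybridised to Illumina Mouse WG-6 v1.1 BeadChips. The authors summarised beads with BeadStudio (version 2 per the labels, 2.3.41 per the file headers) without normalization. The deposited table gives, per probe and array, an intensity (average bead signal), the bead error as an intensity, the number of beads, and a detection score as a fraction from 0 to 1. The table's other 72 columns belong to no sample here and were not used. The separately deposited value table, a signal already scaled by the authors, was used only to see which array each of its columns holds. Its values entered no fit. Columns of fold changes and p-values in the study's supplementary lists were not used. Probe names and accessions came from those lists (1549 of 1589 listed probes had a name). Names were matched to RefSeq symbols, and a name without a match was kept as listed.

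Intensities were divided by the array median and log2-transformed, without a floor. Bacterial control probes (14 lines) were left out, and 9 repeated probes were averaged. The 21434 probes with a detection score above 0.95 on at least 5 arrays were fitted with limma 3.58.1 (R 4.3.3; 3 group means over 18 arrays, empirical Bayes with trend, Benjamini-Hochberg). The code was tested on simulated data. Only arrays limit the precision. The 3 genes and all lists were chosen with earlier results of these data known. Besides the 4 probes, the genes named are the 5 most correlated with each gene, apart from a gene that is not reported here, and all named members of the lists. Alternatives were quantile normalization, normexp background correction, other filters, weights, blocks and tests, and leaving out each array.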

Additional observations from a re-analysis of the deposited data

How the results depend on the processing

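Over 13 other settings, the difference of Npy1r in no AAA minus saline (0.65 to 0.86, adjusted p = 0.00122 to 0.0168) and of Rgs17 probe 1 in AAA minus saline (-1.01 to -0.80, adjusted p = 0.00175 to 0.033) kept their direction and stayed past the threshold, and Rgs17 probe 2 in AAA minus saline (-1.04 to -0.83) did so in 12 of 13, the exception being the methods' t-test on log2 values (-0.83, adjusted p = 0.0509), an alternative chosen after seeing the data. Scaling moved the comparisons with saline. Kcnmb1 in AAA minus saline was -0.055 (adjusted p = 0.847) after quantile normalization and -0.070 (adjusted p = 0.829) after normexp with quantile normalization, Npy1r was -0.68 (adjusted p = 0.0192) and -0.76 (adjusted p = 0.0173), and Kcnmb1 in no AAA minus saline was 0.98 after quantile normalization. The median of all tested probes in AAA minus saline was 0.13 in the scaling used and 0.01 in each of these. With BeadChip as a fixed block Npy1r in AAA minus no AAA was -1.88, a value that by construction rests on no AAA 7.

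Leaving out 1 array at a time gave AAA minus saline from 0.02 to 0.35 (Kcnmb1), -0.56 to -0.30 (Npy1r), -0.95 to -0.71 (Rgs17 probe 1) and -1.02 to -0.70 (probe 2), and no AAA minus saline from 1.12 to 1.24, 0.74 to 0.95, 0.38 to 0.64 and 0.15 to 0.40. The pairs of Kcnmb1 had r from 0.18 to 0.53, 0.091 to 0.54 and 0.13 to 0.58. In saline arrays alone r was 0.69 (adjusted p = 0.379) and 0.62 (adjusted p = 0.411) for Npy1r with the Rgs17 probes, 0.93 (adjusted p = 0.0667) between those probes, and -0.053 and -0.33 for Kcnmb1 with them. In no AAA arrays alone the values were 0.83 (adjusted p = 0.0738) and 0.73 (adjusted p = 0.145) for Npy1r, and -0.022, -0.28 and -0.24 for Kcnmb1 with Npy1r and the probes, by exact permutation tests. The cause of these shifts was not tested.

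The replicate numbers name mice and do not pair them: deviations of same-numbered arrays correlated above 0.1 in 4 of 16 pairs (median -0.04). With the replicate number as a block, AAA minus saline was 0.19, -0.44, -0.83 and -0.88 for the 4 probes and no member's call changed. The counts over the 33 listed genes stayed within 1.5 times of those given under quantile normalization and under both blocks (for example 9 to 13 higher in AAA minus no AAA).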
